A study of Mus musculus with 2 samples.

Results

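The genes described here are 30 that mouse cells use to make, sense, import, move, export and store cholesterol. They were chosen by name from the steps of the pathway, not by their values, and number 18 synthesis enzymes, 4 regulators, 5 genes of uptake and intracellular transport and 3 of efflux and ester turnover, of 41061 genes with a count in the data. The study compared testicular cells of mice aged 2 months, here called young, with those of mice aged 24 months, here called aged, by single-cell RNA sequencing on the BD Rhapsody system, which catches polyadenylated RNA of single cells on barcoded beads in microwells. Each age is 1 library. Both were made the same way, from testes freed of the tunica, minced and digested with accutase. The strain and the number of mice are not given in the sources used here. With 1 library per age no test of a difference between the ages was possible. Values are therefore given with intervals that cover counting error only. Differences between mice, or between libraries in preparation, sequencing or processing, cannot be told apart from differences between ages.

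Cholesterol is built from acetyl-CoA through mevalonate, isoprenoid diphosphates, squalene and lanosterol. When sterols in the endoplasmic reticulum run low, the escort protein Scap carries the transcription factor precursor Srebf2 to the Golgi for cleavage, while Insig1 and Insig2 hold that complex back when sterols are plentiful. In the testis, Leydig cells use cholesterol as the substrate of testosterone, macrophages clear and export sterols, and germ cells need sterols for membranes and make pathway intermediates of their own.

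There were 2771 cells in the young library, at a median depth of 16582 counts, and 6823 cells in the aged library, at a median depth of 7488. After filtering, 2732 young and 5691 aged cells were analysed, and 35 cell labels occurred in both tables. The labels call the material stroma cells, whereas most named cells carried germ cell markers. The classes, named from marker genes, were 1085 young and 580 aged Leydig-like cells, 777 and 2548 spermatocyte-like cells, 462 and 726 round spermatid-like cells, 212 and 507 elongating spermatid-like cells. Smaller classes were 127 and 70 macrophage-like cells and 17 and 130 fibroblast-like cells. All 10 Leydig markers were detected in the Leydig-like cells, and their summed level was 25715 CPM young and 18204 CPM aged, where CPM is a gene's share of all counts in a class of 1 library, scaled to 1000000. The median cell was deeper in the young library in every class, for example 6936 against 4754 counts in Leydig-like cells and 30393 against 16688 in spermatocyte-like cells. Levels were compared between classes and libraries for 1 gene at a time, since CPM is not corrected for gene length.

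The Leydig-like cells held the highest level of 24 of the 30 genes in each library, 23 of them in both, and the highest class was the same in both libraries for 28 genes. For some of these the Leydig-like interval overlapped that of the second class. This held for Mvk in both libraries, for Pmvk, Srebf2 and Scap in the young library and for Abca1 in the aged one. Summed over the 18 synthesis enzymes, the level was 3880 CPM in young cells and 5207 CPM in aged Leydig-like cells, against 687 and 573 CPM in spermatocyte-like, 897 and 881 CPM in round spermatid-like and 490.5 and 574 CPM in elongating spermatid-like cells. The genes that peaked elsewhere had distinct homes. Fdft1, squalene synthase, was highest in round spermatid-like cells. Insig2 was highest in spermatocyte-like cells and Lipe, the hormone-sensitive lipase that hydrolyses stored esters, in elongating spermatid-like cells. Npc1, which moves cholesterol out of lysosomes, was highest in macrophage-like cells, though in the young library its interval overlapped that of the fibroblast-like cells. Tspo, a mitochondrial outer membrane protein, was highest in fibroblast-like cells, at 259 CPM in 17 young cells (20 counts), and at 154 CPM in aged cells, where its interval overlapped that of Leydig-like cells at 111 CPM. The exceptions between libraries were Sqle, squalene epoxidase, which was highest in round spermatid-like cells of the young library at 172 CPM and in Leydig-like cells of the aged library at 195 CPM, and Npc2, the lysosomal partner of Npc1. In the young library the intervals of the highest classes overlapped for both, with Sqle at 167 CPM and Npc2 at 471 CPM in Leydig-like cells, beside 450.2 CPM of Npc2 in macrophage-like cells.

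**Figure D1:**
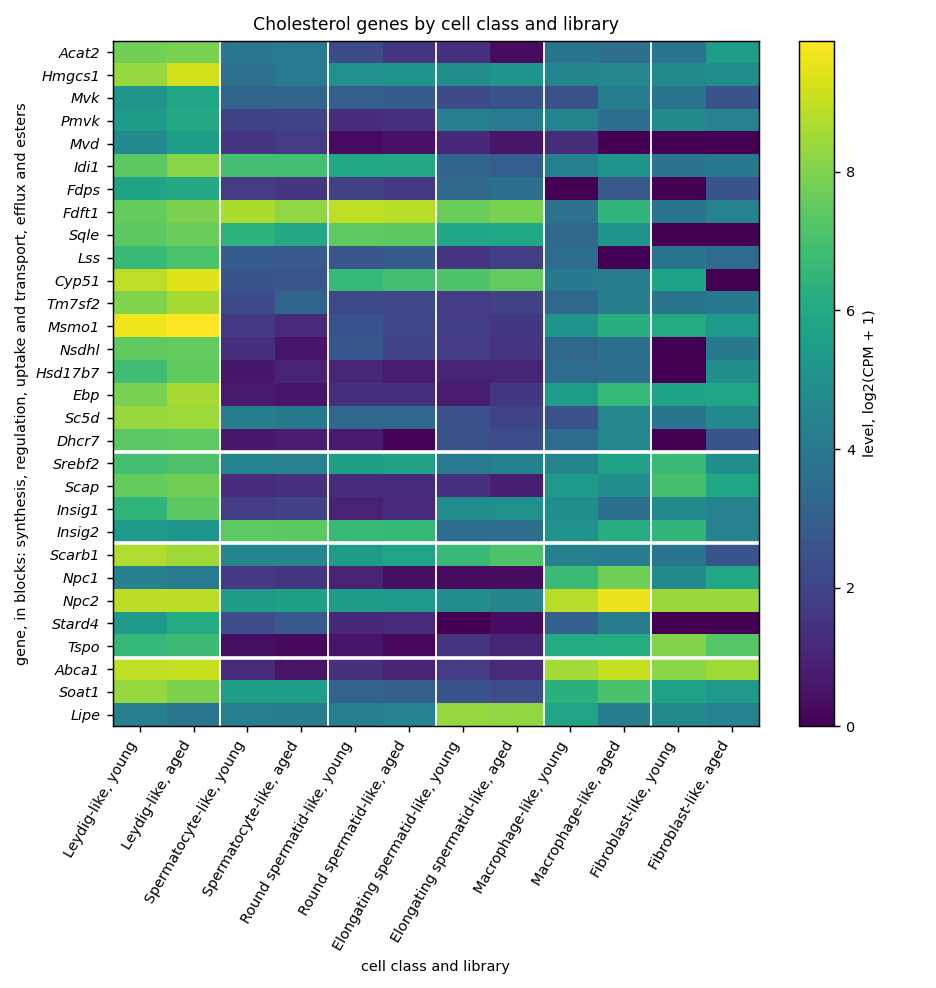
Levels of the 30 genes as log2(CPM + 1), with a column for each of the 6 cell classes in each library and a row for each gene, in blocks of synthesis, regulation, uptake and transport, and efflux and esters. The Leydig-like columns hold the highest level of 24 genes in each library, while Fdft1, Insig2 and Lipe are highest in germ cell columns.

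The first question the design poses for these genes is whether Leydig-like cells of the aged library hold more or less of the synthesis pathway. All 18 synthesis enzymes had a ratio of aged to young above 1 in Leydig-like cells, where 47.4% of all measured genes (20 or more counts over both libraries) did. The ratios ran from 1.03 to 1.82, and the counting intervals of Fdps, Nsdhl, Sc5d and Dhcr7 included 1. Of the 30 genes, 8 were at least 1.5-fold higher in aged Leydig-like cells, against 8.89% of all measured genes, and 0 were at least 1.5-fold lower, against 12.2%. These 8 were counted by size alone. They were the synthesis enzymes Hmgcs1, Mvk, Mvd, Idi1, Hsd17b7 and Ebp, the regulator Insig1 and the sterol carrier Stard4. The median log2 ratio was 0.24 over the 30 genes and 0.47 over the synthesis enzymes, beside -0.011 over all measured genes. Most aged Leydig-like cells lay in a different cluster from most young ones, which is described after the single genes.

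Among the enzymes before farnesyl diphosphate, Hmgcs1, which makes the precursor of mevalonate, stood at 329 CPM (2601 counts) in young cells and 599 CPM (1681 counts) in aged Leydig-like cells, a ratio of 1.82 (95% interval 1.71 to 1.94). Mvk, the first mevalonate kinase, stood at 34.5 CPM in young cells and 57.1 CPM in aged cells, a ratio of 1.66 (1.35 to 2.02). Mvd, which decarboxylates mevalonate diphosphate to isopentenyl diphosphate, was at 25.2 CPM in young cells and 44.9 CPM in aged cells, a ratio of 1.78 (1.41 to 2.24). These 3 enzymes act in the same short stretch of the pathway, and the interval of each lay above 1. Idi1, which isomerises isopentenyl diphosphate, was at 169.6 CPM in young cells and 279 CPM in aged cells, a ratio of 1.64 (1.502 to 1.80). Pmvk, the kinase between Mvk and Mvd, fell just under the limit with 42.0 CPM in young cells and 61.0 CPM in aged cells, a ratio of 1.45 (1.20 to 1.75). Acat2, which joins acetyl-CoA units at the entry of the pathway, was nearly level, at 217 CPM in young cells and 239 CPM in aged cells. Acat2 has a near-copy, Acat3, at 38.5 CPM in young cells and 18.2 CPM in aged Leydig-like cells, and reads of these 2 genes may be split between them.

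From farnesyl diphosphate onward the ratios were smaller in the middle steps and varied in the last ones. Fdft1 was at 189 CPM in young cells and 247 CPM in aged Leydig-like cells, a ratio of 1.31 (1.20 to 1.44), and Sqle at 167 CPM and 195 CPM. Ctsb, which overlaps Fdft1 on the opposite strand, was at 1332 CPM and 1287 CPM in these cells. Its part in the Fdft1 level was not tested. Fdps, which makes farnesyl diphosphate, was at 51.5 CPM and 61.7 CPM, a ratio of 1.20 (0.996 to 1.43). Lss, which cyclises epoxidised squalene to lanosterol, was at 101 CPM and 136 CPM, a ratio of 1.34 (1.18 to 1.51). Cyp51, the lanosterol demethylase, was at 479 CPM in young cells and 686 CPM in aged cells, a ratio of 1.43 (1.35 to 1.51). Tm7sf2, a sterol reductase that follows Cyp51, lay just under the limit, at 259 CPM in young cells and 388 CPM in aged cells, a ratio of 1.497. Hsd17b7, a sterol ketoreductase, lay just above it, at 117 CPM in young cells and 179 CPM in aged cells, a ratio of 1.54 (1.38 to 1.72). Ebp, the sterol isomerase, was at 241 CPM in young cells and 383 CPM in aged cells, a ratio of 1.59 (1.47 to 1.71). The other late enzymes were closer between the ages. Msmo1, the methylsterol oxidase, was at 788 CPM in young cells and 950.1 CPM in aged cells, a ratio of 1.21 (1.15 to 1.26). Nsdhl had a ratio of 1.03 (0.927 to 1.14) and Sc5d of 1.06 (0.982 to 1.14). Dhcr7, which catalyses the final reduction to cholesterol, had a ratio of 1.05 (0.946 to 1.17).

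**Figure D2:**
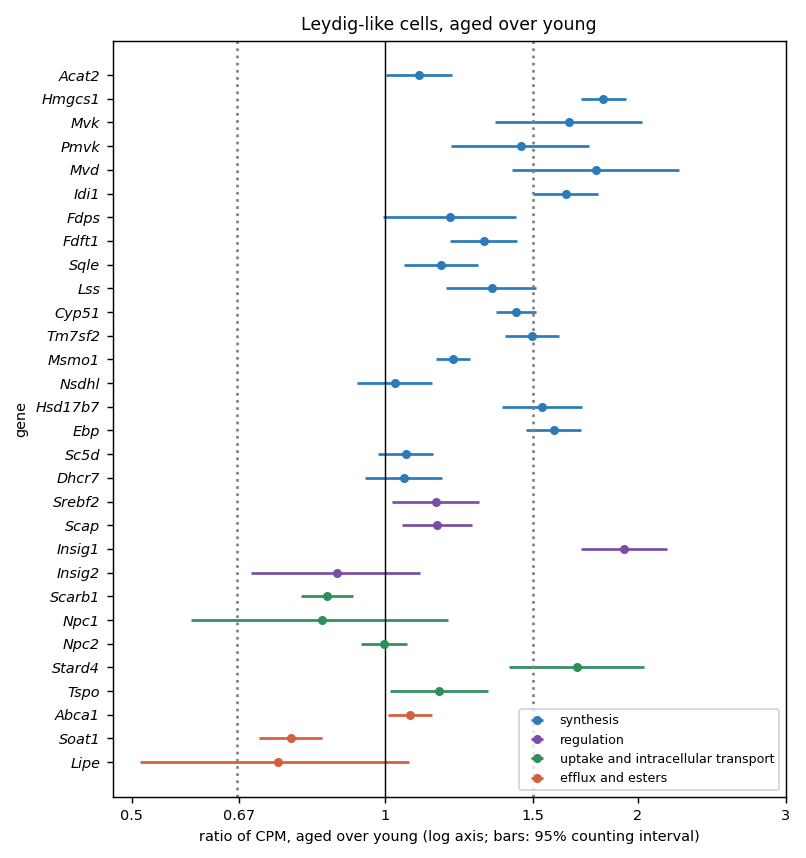
Ratio of aged to young CPM of each gene in Leydig-like cells on a log axis, with 95% counting intervals, coloured by role; the dotted lines mark 1.5-fold in each direction. The ratios of all 18 synthesis enzymes lie above 1, with intervals that include 1 for Fdps, Nsdhl, Sc5d and Dhcr7. Insig1 has the highest ratio of the 30 genes at 1.93.

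The promoters of 6 of the 8 genes are shown because these genes were higher together in aged Leydig-like cells. Each line gives the 140 bases before the annotated start, from RefSeq on GRCm38.p6 and cut where a GENCODE transcript starts earlier. Capitals mark matches on either strand to the sterol regulatory element TCACNCCAC, the NF-Y box CCAAT and the Sp1 box GGGCGG, none of which overlap one another in these stretches.
Hmgcs1, chr13:119690211-119690350, plus strand: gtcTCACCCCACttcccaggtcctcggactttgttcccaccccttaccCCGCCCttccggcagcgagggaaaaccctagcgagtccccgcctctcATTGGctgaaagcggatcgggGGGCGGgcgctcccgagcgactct
Mvk, chr5:114444129-114444268, plus strand: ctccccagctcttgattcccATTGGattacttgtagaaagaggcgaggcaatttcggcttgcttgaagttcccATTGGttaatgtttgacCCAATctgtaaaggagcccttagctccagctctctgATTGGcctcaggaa
Mvd, chr8:122443423-122443562, minus strand: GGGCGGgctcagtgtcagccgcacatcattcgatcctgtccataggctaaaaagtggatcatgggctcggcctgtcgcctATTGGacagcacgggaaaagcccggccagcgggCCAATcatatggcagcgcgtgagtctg
Hsd17b7, chr1:169969242-169969381, minus strand: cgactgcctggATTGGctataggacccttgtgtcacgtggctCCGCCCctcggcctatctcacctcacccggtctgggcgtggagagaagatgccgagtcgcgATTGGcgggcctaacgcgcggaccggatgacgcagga
Ebp, chrX:8193513-8193652, minus strand: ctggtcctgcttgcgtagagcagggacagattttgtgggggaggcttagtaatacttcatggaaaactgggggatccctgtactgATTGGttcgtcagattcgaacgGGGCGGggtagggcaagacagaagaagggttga
Insig1, chr5:28071223-28071362, plus strand: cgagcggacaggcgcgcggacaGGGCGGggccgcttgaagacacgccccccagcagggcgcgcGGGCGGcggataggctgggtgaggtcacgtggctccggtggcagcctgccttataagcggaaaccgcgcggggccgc

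Hmgcs1 held the sterol regulatory element, Mvk held 4 NF-Y boxes, and Insig1 held 2 Sp1 boxes. Idi1 is not shown, because a GENCODE transcript starts 105 bases before its RefSeq start. The RefSeq window of Idi1 held CCAAT and GGGCGG between those starts, and the 140 bases before both held none of the motifs. Stard4 is named only. Over the whole RefSeq windows, from 250 bases before to 50 bases after the start, 23 of the 30 genes had an entry. The element TCACNCCAC was in 1 of these 23 genes, Hmgcs1, and in 1.44% of 27025 genes. CCAAT was in 19 of the 23 genes and in 41.1% of all genes with a window, and GGGCGG was in 22 of the 23 and in 38.2% of all. These are matches of letters, and binding was not measured.

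Among the regulators, Insig1 had the largest ratio of the 30 genes in Leydig-like cells. It stood at 87.9 CPM (694 counts) in young cells and 169.4 CPM (475 counts) in aged cells, a ratio of 1.93 (1.71 to 2.17). Its paralogue Insig2 did not share this, with 40.3 CPM in young cells and 35.3 CPM in aged cells, a ratio of 0.877 (0.692 to 1.10). Srebf2 was at 121 CPM in young cells and 139 CPM in aged cells, and Scap at 187 CPM and 215 CPM, each a ratio of 1.15. When each cell was thinned to 2000 counts, which left out 52 aged and 0 young Leydig-like cells, 13.8% of young Leydig-like cells had an Insig1 count (exact Clopper-Pearson interval 11.8 to 16.0), as did 25.6% of the aged ones (21.9 to 29.5). At full depth the shares were 39.3% and 43.6%. In thinned spermatocyte-like cells Insig1 was seen in 0.386% of young and 0.691% of aged cells. Hmgcs1 showed the same order, with 40.4% of young cells and 58.9% of aged ones after thinning and 75.6% and 76.0% before it. In thinned spermatocyte-like cells it was seen in 1.93% and 4.03%.

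The genes of uptake, transport, export and esters lay closer between the libraries in Leydig-like cells, with the exception of Stard4. Stard4, a soluble carrier of sterols between membranes, was at 39.4 CPM in young cells and 66.7 CPM in aged cells, a ratio of 1.69 (1.40 to 2.04). Scarb1, the receptor through which Leydig cells take cholesteryl ester from high-density lipoprotein, was at 419 CPM in young cells and 358 CPM in aged cells, a ratio of 0.854 (0.795 to 0.917). Npc2 stood at 471 CPM in young cells and 470.4 CPM in aged cells, a ratio of 0.998 (0.937 to 1.06). Tspo was at 95.2 CPM and 111 CPM, and Npc1 at 18.6 CPM and 15.7 CPM. Soat1, which esterifies cholesterol for storage, was at 316 CPM in young cells and 244 CPM in aged cells, a ratio of 0.772 (0.709 to 0.841). Abca1, the exporter that loads cholesterol onto apolipoproteins, was at 490.3 CPM in young cells and 525 CPM in aged cells, a ratio of 1.07 (1.01 to 1.14). Lipe rested on 147 young and 39 aged counts, with a ratio of 0.747 (0.511 to 1.07).

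The Leydig-like cells of the libraries were largely separate clusters, although the 30 genes were left out of the clustering. In cluster 1, led by the kallikrein genes Klk1b21, Klk1b27 and Klk1b24, lay 97.8% of young but only 9.66% of aged Leydig-like cells. Cluster 4, led by Cxcl1, Cxcl10, Fetub and Irf1, held the other 2.21% of young and 90.3% of aged cells. The 56 aged cells in cluster 1 and the 24 young cells in cluster 4 therefore show the genes apart from the main split. In cluster 1, Hmgcs1 was at 322 CPM in young cells and 727 CPM in aged cells, a ratio of 2.26 (1.92 to 2.64), and Insig1 at 86.2 CPM and 228 CPM, a ratio of 2.64 (1.95 to 3.51). In cluster 4, Hmgcs1 was at 650.0 CPM in young cells and 588 CPM in aged cells, a ratio of 0.905 (0.746 to 1.11), and Insig1 at 163 CPM and 164 CPM, a ratio of 1.01 (0.689 to 1.54). The young cells that clustered with the aged ones thus held levels of these genes near those of aged cells. Of the 30 genes, 8 were at least 1.5-fold higher within cluster 1 and 3 within cluster 4, where in turn 18.7% and 25.4% of all genes with enough counts were. The 8 within cluster 1 were not all the same genes as the 8 of the whole class. With 0.5 added to each count, the highest ratio within a cluster was 1.44 for Ebp and 1.49 for Hsd17b7.

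Not every gene followed Hmgcs1 and Insig1. Abca1 was at 749 CPM in young cells and 509 CPM in the aged cells of cluster 4, a ratio of 0.679 (0.567 to 0.820), but at 485 CPM and 709.5 CPM in cluster 1, a ratio of 1.46 (1.24 to 1.71). These values rest on 24 young cells in cluster 4 and 56 aged cells in cluster 1. Scarb1 was lower in the aged library in both, at 419 CPM and 359 CPM in cluster 1 and 435 CPM and 358 CPM in cluster 4, with counting intervals that overlapped in each. Per cell, the 18 synthesis enzymes took a median of 35.0 of every 10000 counts in young and 46.3 in aged Leydig-like cells, with the middle 50% of cells between 23.3 and 47.7 and between 31.4 and 65.3. The distributions overlapped widely. By cluster, the median was 35.0 in young and 49.6 in aged cells of cluster 1. In cluster 4, with its 24 young cells, it was 45.85 and 46.0, so this median was level there. By summed counts, the median log2 ratio of the 18 enzymes in cluster 4 was 0.178, beside -0.061 over all genes with enough counts. There 2 of the 18 were at least 1.5-fold higher and 0 lower, beside 2467 and 1634 of 9728 genes. In cluster 1 the median log2 ratio was 0.532, beside 0.114 over all such genes. With the clusters pooled, the share of the 18 enzymes per 10000 counts was higher in the aged cells of each depth range. It was 33.8 in young and 50.8 in aged cells of 2000 to 4000 counts. In cells of 4000 to 6000 counts it was 37.2 and 51.4, and in those of 6000 to 8000 counts 38.45 and 55.2. The libraries were closest in cells of 8000 to 12000 counts, at 40.8 and 52.1, with 333 young and 29 aged cells. The depth ranges were chosen after the data had been seen.

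**Figure D3:**
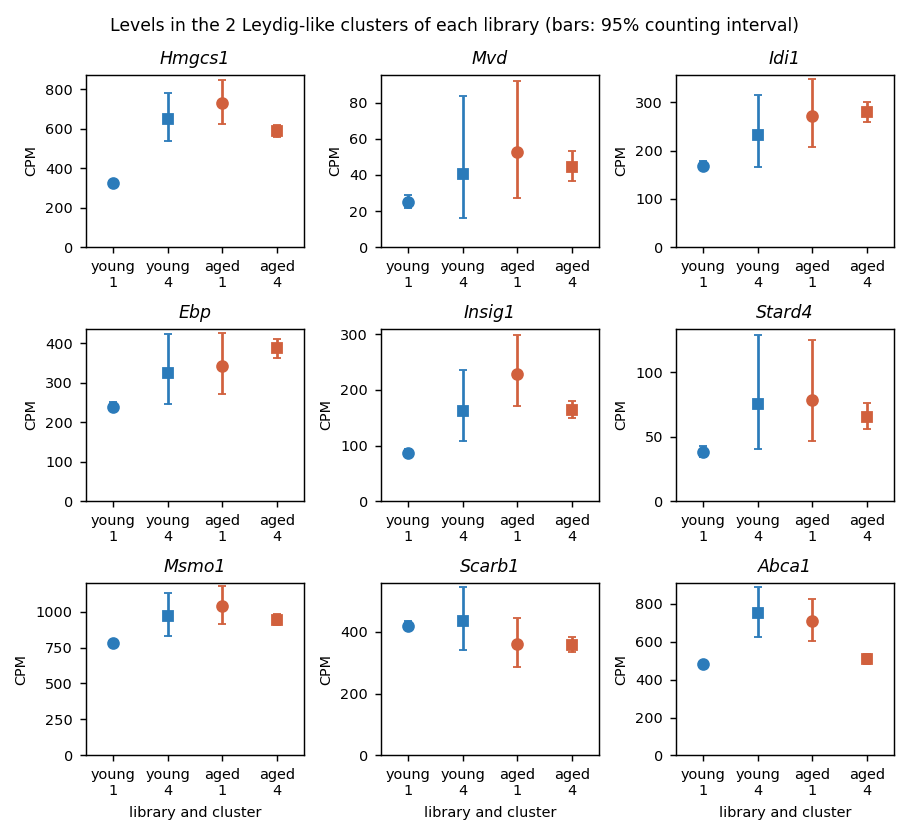
CPM of 9 genes in the young and aged cells of the Leydig-like clusters 1 and 4, with 95% counting intervals; each panel starts at 0. Hmgcs1 is at 322 CPM in the young cells of cluster 1 and at 588 CPM or more in the other 3 groups, while Scarb1 is lower in both aged groups.

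In germ cells the question is which classes express each step, and there most measured genes were under 1.5-fold apart between the libraries. Where 2 values are joined in what follows, the young library stands first. Fdft1 was at 404 CPM in young cells and 305 CPM in aged spermatocyte-like cells, 492 and 460.3 CPM in round spermatid-like cells, and 199.9 and 237 CPM in elongating spermatid-like cells. By cluster it ran from 86.5 CPM in young cells and 102 CPM in the aged cells of spermatocyte-like cluster 9 to 527 and 486 CPM in round spermatid-like cluster 5. It then stood at 50.4 and 44.4 CPM in cluster 7, the elongating spermatid-like cells led by the protamines Prm1 and Prm2. Ctsb, which overlaps Fdft1 on the opposite strand, was at 2.52 CPM in young cells and 1.09 CPM in aged spermatocyte-like cells. Its part in the germ cell level of Fdft1 was not tested. Sqle, the next enzyme, peaked in the same cluster 5, at 191 and 187 CPM, and was at 34.6 and 35.9 CPM in spermatocyte-like cluster 2.

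Cyp51 came later. It was at 4.89 CPM in young cells and 5.29 CPM in aged spermatocyte-like cells, 97.9 and 119 CPM in round spermatid-like cells and 141 and 184 CPM in elongating spermatid-like cells. By cluster it was at 31.3 and 41.1 CPM in cluster 5, 139 and 139 CPM in cluster 8, 237 and 228 CPM in cluster 13 and 276 and 283 CPM in cluster 12. In cluster 7 it was at 15.4 and 8.45 CPM. The class name of cluster 12 depended on the clustering. At resolution 0.5 its leading genes Tuba8, Prss37 and Tmem144 led a cluster of 148 young and 335 aged cells that was named round spermatid-like. Whether the peak of Cyp51, and of Scarb1 below, lies in round or elongating spermatid-like cells therefore depends on that setting. Akap9, the opposite-strand neighbour that overlaps Cyp51, was at 80.1 and 96.6 CPM in round and 22.3 and 17.8 CPM in elongating spermatid-like cells. Its part in the Cyp51 level was not tested. The enzymes that follow Cyp51 stayed low: Msmo1 was at 4.68 and 3.33 CPM, Ebp at 1.49 and 1.497 CPM and Dhcr7 at 0.639 and 0.0832 CPM in round spermatid-like cells. Idi1 had the opposite profile to Cyp51. It was at 132 and 144 CPM in spermatocyte-like cluster 0, 27.1 and 19.6 CPM in cluster 13 and 12.2 and 6.34 CPM in cluster 12.

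The regulators and lipid-handling genes changed hands between the same clusters. Insig2 was at 173 CPM in young cells and 169.6 CPM in aged spermatocyte-like cells, and Insig1 at 2.44 and 2.74 CPM. In elongating spermatid-like cells Insig2 was at 11.0 and 11.4 CPM and Insig1 at 28.2 and 30.4 CPM. Each paralogue thus had its germ cell peak where the other was low. Srebf2 was highest in round spermatid-like cells among germ cells, at 47.9 and 50.4 CPM, beside 20.7 and 20.01 CPM in spermatocyte-like cells. Scap, its escort, was at 1.48 and 1.65 CPM in spermatocyte-like cells. Scarb1 was at 21.4 and 21.7 CPM in spermatocyte-like, 42.0 and 54.6 CPM in round and 104 and 139 CPM in elongating spermatid-like cells, and by cluster was highest in cluster 12, at 166 and 196 CPM.

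Lipe and Soat1, which act in opposite directions on cholesteryl ester, were at opposite ends of the series. Lipe was at 18.2 and 17.1 CPM in spermatocyte-like and 318 and 305 CPM in elongating spermatid-like cells, and by cluster at 416 and 461 CPM in cluster 7. Soat1 was at 46.1 and 46.2 CPM in spermatocyte-like and 4.93 and 4.06 CPM in elongating spermatid-like cells. After thinning to 2000 counts, Lipe was detected in 46.7% of young and 45.6% of aged elongating spermatid-like cells and in 3.60% and 3.74% of spermatocyte-like cells. At full depth those shares were 97.6% and 72.6%, and 40.5% and 24.4%.

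**Figure D4:**
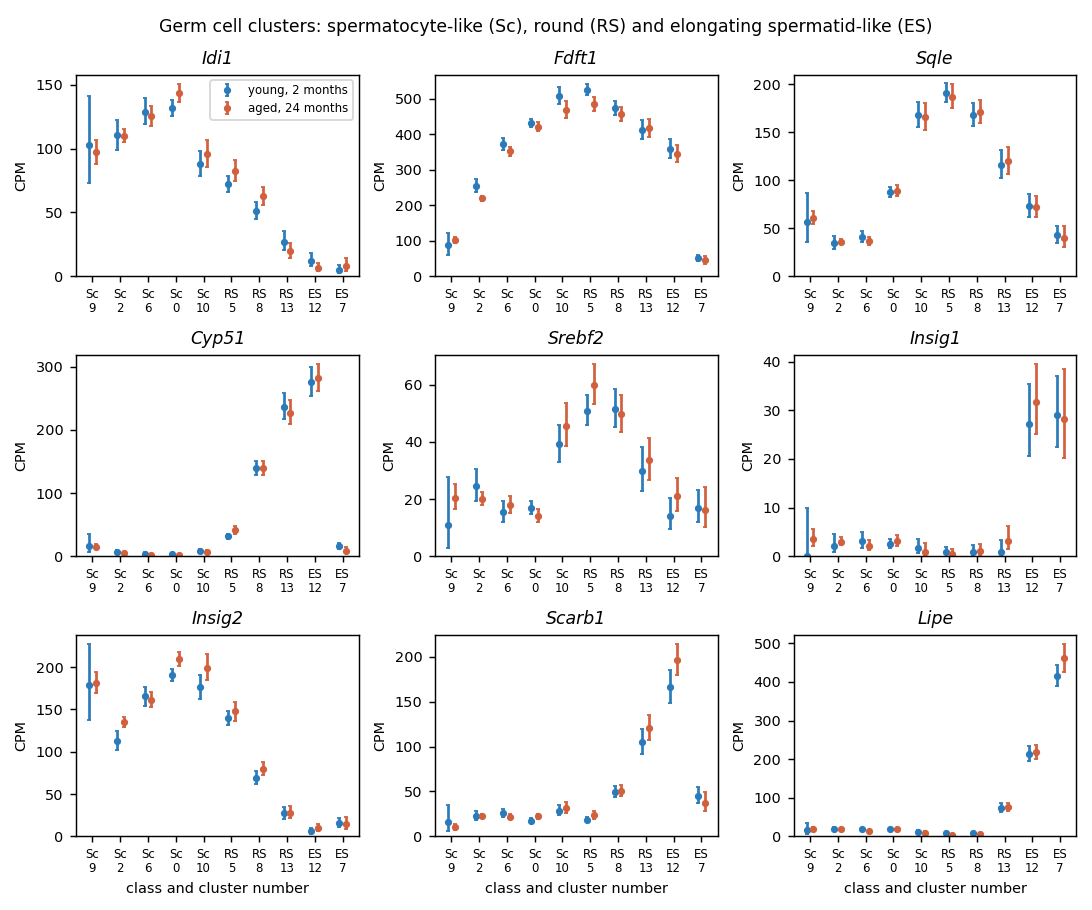
CPM of 9 genes in the 10 germ cell clusters of each library with 95% counting intervals; the clusters are ordered by class and by overlap of markers, not by a measured time. Fdft1 and Sqle peak in cluster 5, at 527 and 191 CPM in the young library, Cyp51 and Scarb1 in cluster 12, and Lipe in cluster 7. At these peaks the libraries are under 1.5-fold apart.

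The age comparison in germ cells gave few differences of 1.5-fold or more. Of 29 genes measured in spermatocyte-like cells, 2 were at least 1.5-fold higher in the aged library, against 14.8% of all measured genes, and 3 were at least 1.5-fold lower, against 14.7%. In round spermatid-like cells 0 of 26 were higher, against 5.99%, and 3 were lower, against 5.86%. In elongating spermatid-like cells 0 of 18 were higher, against 9.71%, and 0 were lower, against 5.79%. In spermatocyte-like cells Idi1 had a ratio of 0.981 (0.938 to 1.03), Insig2 of 0.978 (0.942 to 1.02) and Soat1 of 1.003 (0.932 to 1.08). Fdft1, which had the most counts there, was lower in the aged library, with a ratio of 0.755 (0.735 to 0.775). Sqle was lower too, at 0.754 (0.712 to 0.799), while Npc2 was higher, at 1.15 (1.06 to 1.24), all under 1.5-fold. In round and elongating spermatid-like cells, Scarb1 had ratios of 1.30 (1.16 to 1.45) and 1.34 (1.18 to 1.52). Cyp51 had ratios of 1.21 (1.13 to 1.31) and 1.30 (1.17 to 1.45) there. Fdft1 was lower in round spermatid-like cells, at 0.935 (0.903 to 0.969), and higher in elongating ones, at 1.19 (1.08 to 1.30).

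Tm7sf2 was at 3.61 CPM in young cells and 8.12 CPM in aged spermatocyte-like cells, a ratio of 2.25 (1.78 to 2.87). Its highest level among these clusters was in cluster 9, whose leading genes include Tex101, Maz and Adad2, at 37.9 CPM in its 17 young cells (14 counts) and 29.3 CPM in its aged cells. That cluster held 2.19% of the young spermatocyte-like cells but 15.5% of the aged ones, and its part in the ratio over the class was not tested. Within the other clusters Tm7sf2 was at 2.27 and 1.32 CPM in cluster 0, a ratio of 0.583 (0.291 to 1.12), and at 8.41 and 10.2 CPM in cluster 2, a ratio of 1.22 (0.806 to 1.90). It was at 1.62 and 3.501 CPM in cluster 6, a ratio of 2.16 (0.965 to 5.48), and at 3.28 and 3.69 CPM in cluster 10, a ratio of 1.12 (0.462 to 2.74). Each of these intervals included 1. Fdft1, which was low in cluster 9, had a ratio of 0.755 (0.735 to 0.775) over spermatocyte-like cells, but was at 432 and 422 CPM in cluster 0. Sqle, higher in clusters 0 and 10 than in cluster 2, had a ratio of 0.754 (0.712 to 0.799) over the class and was at 87.9 and 89.1 CPM in cluster 0. Tm7sf2 overlaps Vps51 on the same strand, at 2.20 and 3.99 CPM in the class. Hsd17b7, the other gene above the limit, rested on 13 young and 41 aged counts, with an interval of 0.960 to 3.72 around 1.83.

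The lower genes in germ cells were at very low levels. Nsdhl was at 1.52 CPM (38 counts) in young cells and 0.511 CPM (22 counts) in aged spermatocyte-like cells, a ratio of 0.335 (0.189 to 0.582). Abca1 was at 1.32 CPM (33 counts) and 0.418 CPM (18 counts), a ratio of 0.316 (0.168 to 0.578), and Msmo1 at 2.12 and 1.30 CPM, a ratio of 0.612 (0.413 to 0.909). In round spermatid-like cells, Acat2 had a ratio of 0.509 (0.297 to 0.844), Nsdhl of 0.549 (0.361 to 0.821) and Abca1 of 0.611 (0.277 to 1.28). Beside these stands the level of Cyp17a1, the Leydig enzyme that turns progestogens into androgens and which germ cells are not known to make. In spermatocyte-like cells it stood at 0.330% of its Leydig-like level for the young library and 0.106% for the aged, and in round spermatid-like cells 0.499% and 0.205%. Abca1 in spermatocyte-like cells was at 0.270% and 0.0796% of its Leydig-like level, and Msmo1 at 0.269% and 0.137%, both near the Cyp17a1 share. Nsdhl lay further above it, at 0.851% and 0.278% in spermatocyte-like and 3.14% and 1.68% in round spermatid-like cells. In round spermatid-like cells Acat2 was at 1.73% and 0.802%, and Abca1 at 0.333% and 0.190%. No germ cell expression is read from these levels. Free Leydig RNA was estimated as the level that the Cyp17a1 share would give. With it taken off, the ratio in round spermatid-like cells was 0.532 for Acat2 and 0.573 for Nsdhl. In spermatocyte-like cells it was 0.339 for Nsdhl. No Abca1 was left there in either library, and Msmo1 was left in the aged library only, at 0.295 CPM. The cause of these ratios was not tested.

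By that measure, 5 genes in spermatocyte-like cells, namely Msmo1, Nsdhl, Ebp, Tspo and Abca1, stayed within 3 times the level that the Cyp17a1 share would give, in both libraries. In round spermatid-like cells 6 genes did, namely Msmo1, Hsd17b7, Ebp, Dhcr7, Tspo and Abca1. By contrast, Fdft1 stood at 214% and 123%, Insig2 at 430.3% and 480.3%, and Lipe at 97.5% and 123% of their Leydig-like levels in spermatocyte-like cells. Their germ cell levels were far above the Cyp17a1 share.

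**Figure D5:**
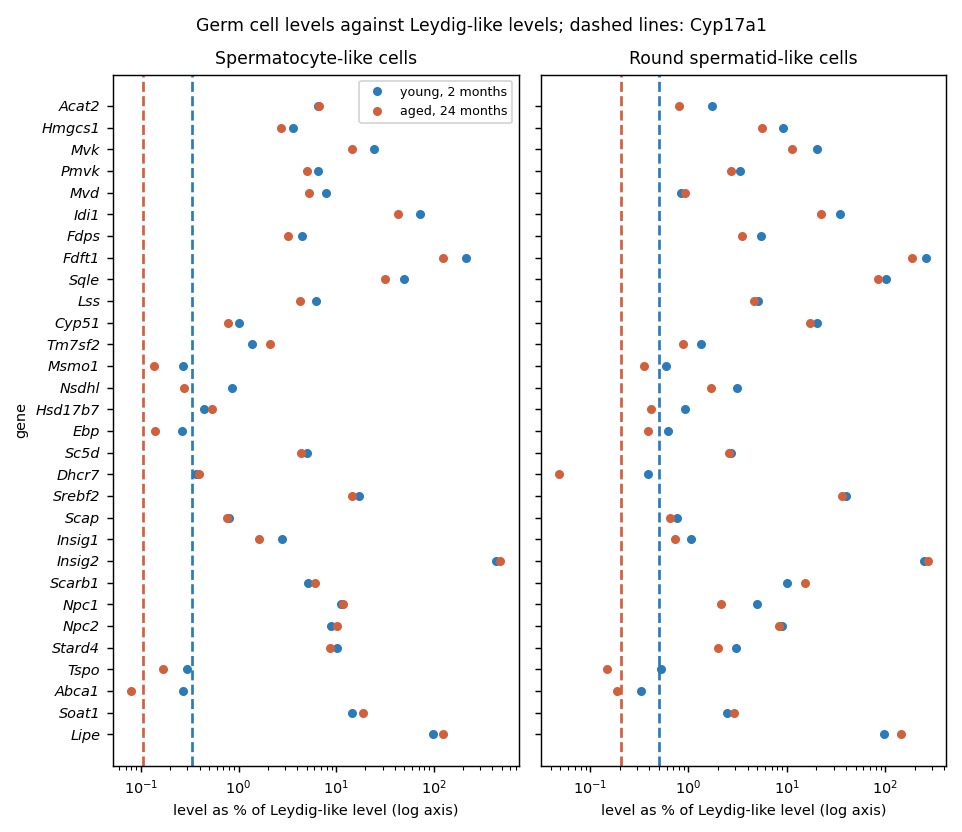
Level of each gene in spermatocyte-like and round spermatid-like cells as a percentage of its Leydig-like level in the same library, on a log axis; dashed lines mark the same percentage for Cyp17a1. Abca1, Ebp, Msmo1 and Tspo lie at or near the dashed lines in spermatocyte-like cells, while Insig2, Fdft1 and Lipe lie near or above 100%.

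In macrophage-like cells Npc1 stood above the Leydig-like level in both libraries, at 105 and 211 CPM beside 18.6 and 15.7 CPM. Npc2 was at 450.2 CPM beside 471 CPM in the young library, with overlapping intervals, and at 787 CPM beside 470.4 CPM in the aged library. Abca1 was at 363 CPM beside 490.3 CPM in the young library and at 519 CPM beside 525 CPM in the aged, where the intervals overlapped. The summed level of synthesis enzymes was far below that of Leydig-like cells. The macrophage-like cells are described without ratios because their clusters differ between the libraries. Cluster 16, led by Lyz2, Ccl8 and Csf1r, held 38 young and 70 aged cells, and cluster 19, led by Fcer1g and Fcrls, held 89 young and 0 aged cells. In cluster 16, Abca1 was at 777 CPM in young cells and 519 CPM in aged cells, Npc2 at 835 and 787 CPM and Npc1 at 180.0 and 211 CPM. Soat1 was at 157 and 131 CPM. In the young cells of cluster 19 the same genes were lower, with Abca1 at 220.0 CPM, Npc2 at 318 CPM, Npc1 at 79.9 CPM and Soat1 at 55.9 CPM, while Lipe was at 71.9 CPM. The 18 synthesis enzymes summed to 248 CPM in young cells and 502 CPM in aged macrophage-like cells. Fdft1 alone was at 11.9 CPM (8 counts) and 91.3 CPM (16 counts). Other values moved with it: Ctsb, on its opposite strand, was at 2334 and 5196 CPM, and the 10 spermatocyte markers summed to 253 CPM in young cells and 1682 CPM in aged macrophage-like cells. Their part in the Fdft1 level was not tested.

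The fibroblast-like cells, 17 young and 130 aged, gave few counts per gene. Tspo was at 259 CPM (20 counts) in young cells and 154 CPM (31 counts) in aged cells, Abca1 at 285 and 357 CPM and Npc2 at 336 and 342 CPM. Sqle, Mvd and Stard4 had 0 counts in both libraries, which, in totals of 77286 young and 201437 aged counts, allows levels of up to 38.8 and 14.9 CPM (3 counts). Synthesis enzymes summed to 311 CPM in young cells and 333 CPM in aged fibroblast-like cells.

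A further 33 genes of sterol handling in the tables, chosen by name, set the 30 in context. In Leydig-like cells 29 of them had enough counts. Of these, 3 were at least 1.5-fold higher in the aged library, against 8.89% of all measured genes, and 4 at least 1.5-fold lower, against 12.2%. Both counts were near those shares, and the median log2 ratio of the 29 genes was -0.081. The higher genes were Gramd1b, which moves accessible cholesterol from the plasma membrane to the endoplasmic reticulum, at 543 CPM in young cells and 979 CPM in aged cells, Aacs, which activates acetoacetate for lipid synthesis, at 41.8 and 75.6 CPM, and Stard3, a late endosomal sterol transporter, at 22.0 and 35.3 CPM. The lower genes were Lcat at 33.4 and 19.3 CPM, Pltp at 3.55 and 2.14 CPM, Cyp27a1 and Cyp7b1. Cyp27a1, a sterol side-chain hydroxylase, was at 93.7 and 62.4 CPM, and Cyp7b1, an oxysterol hydroxylase, at 4.81 and 0.713 CPM. Pltp rested on 28 young and 6 aged counts, with a ratio interval of 0.204 to 1.49, and Cyp7b1 on 38 and 2 counts. In spermatocyte-like cells 3 of 26 were higher, against 14.8% of all measured genes, and 4 lower, against 14.7%. In round spermatid-like cells 1 of 21 was higher, against 5.99%, and 4 lower, against 5.86%. In elongating spermatid-like cells 2 of 18 were higher, against 9.71%, and 5 lower, against 5.79%. The lower genes in germ cells include genes that are abundant in Leydig-like cells. Cyp11a1, which cleaves the cholesterol side chain and was lower in each of the 3 germ cell classes, stood in spermatocyte-like cells at 0.318% and 0.12% of its Leydig-like level, beside 0.330% and 0.106% for Cyp17a1. The fatty acid and lipoprotein receptor Cd36, also lower in all 3, stood at 0.232% and 0.0568%. Star, which brings cholesterol into mitochondria, was lower in both spermatid classes and stood in round spermatid-like cells at 0.407% and 0.152%, beside 0.499% and 0.205% for Cyp17a1.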

How the data were processed

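The authors deposited 1 table of raw counts for each library, whole numbers that were not normalized. Per the file headers, the BD Rhapsody pipeline (1.7.1) with STAR (2.5.2b) made the aged table, while the young table has no header, and per the submitters' processing notes Cell Ranger 2.11 and the mm10 genome were used. Whether counts are molecules or reads, and whether strand was used, is not given in the sources used here. This bears on the 16 of the 30 genes that overlap another annotated gene. The shallowest cell had 3215 counts in the young table and 186 in the aged one.

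The genes, lists and tests were chosen with earlier results of these data known. The rule for named genes took all 30, with full values for those at least 1.5-fold apart in a compared class or abundant in their role. A further list of sterol genes was counted, and its members were named where at least 1.5-fold apart. All 30 genes, and 98.4% of 43026 gene columns, were found by name in GENCODE M21.

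Cells were kept from 500 counts and 200 genes upward and up to 25% mitochondrially encoded counts, which left 2770 young and 5812 aged cells. Scrublet in scanpy 1.11.5 called 38 young (1.37%) and 121 aged (2.08%) cells doublets, which were removed. Cell totals were scaled to 10000 before the log transform, and 2000 variable genes without the 30, 40 components and 15 neighbours gave Leiden clusters (leidenalg 0.10.2, resolution 1). Clusters were named from marker lists where 3 or more markers stood out. The limits that leave shallow or mixed clusters unnamed were set with the clusters in view, and 52 young and 1097 aged cells stayed unnamed.

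Counts were summed per class and library and given as CPM, with exact Poisson intervals. Ratios have exact conditional binomial intervals, at 95%, and were made in classes of 50 or more cells per library for genes with 20 or more counts over both libraries. Log2 ratios used 0.5 added to each count. The interval code was tested on simulated data. Alternatives are scaling, filters, doublets, resolution, thinning, free Leydig RNA and single clusters.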

Additional observations from a re-analysis of the deposited data

How the results depend on the processing

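No paired analysis was possible because each age is 1 library. Unless stated, the counts below stand without the share of all genes under the same setting, and show only how each count moves. In Leydig-like cells the count of genes at least 1.5-fold higher stayed between 7 and 9 over 11 settings on the whole class (main value 8), and was 3 within cluster 4. The count of lower genes went from 0 to 1 after thinning, within cluster 1 and within cluster 4. Within cluster 4, which has 24 young cells, the log2 ratio reversed for Hmgcs1 (-0.15) and Stard4 (-0.25). For Insig1 it was -0.0086 with 0.5 added to each count, while the plain ratio was 1.01. Of 104 single-gene values in Leydig-like cells, 92 kept direction and size, 9 moved and 3 changed sign, Insig1 only through the added 0.5. In spermatocyte-like cells the higher count of 2 became 1 with a minimum of 100 counts, 6 after thinning, 4 with free Leydig RNA taken off, and 0 within clusters 0 and 10. The lower count of 3 became 1 with 100 counts, with a mean over cells, with free RNA taken off and within cluster 6, and 0 after thinning. Within cluster 0 it was 5 of 26 genes, beside 945 of 13391 of all genes with enough counts. Of 15 synthesis enzymes there, 4 were lower, and their median log2 ratio was -0.297, beside -0.011 over all such genes. Tm7sf2 reversed within cluster 0 (-0.76) and Hsd17b7 within cluster 2 (-0.50). In round spermatid-like cells the lower count of 3 became 1 with 100 counts and within cluster 13, 6 with a minimum of 1 count, 5 with doublets kept and 0 after thinning. The higher count of 0 became 1 with 1 count, with doublets kept, with free RNA taken off and within cluster 5, and 2 after thinning. Nsdhl reversed within cluster 13 (0.080). In elongating spermatid-like cells the lower count of 0 became 1 with all genes centred, with the lowest young cell total or at resolution 2, 2 at resolution 0.5, with a mean over cells or within cluster 7, 3 within cluster 12 and 5 with 1 count. The higher count of 0 became 1 with the lowest young cell total, at resolution 0.5 or within cluster 7, 2 with 1 count or within cluster 12, and 3 at resolution 2. A single-gene value was not made where either library had 0 counts. Free RNA was taken off in germ cells only. Causes were not tested.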

Other observations

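A group of 272 aged and 3 young cells, cluster 11, was left unnamed because its aged cells were shallow, with a median of 1539 counts, and no marker of its own led it. It had 9 elongating spermatid markers up. In its aged cells Scarb1 was at 612 CPM (318 counts), Cyp51 at 509.8 CPM (265 counts) and Lipe at 267 CPM (139 counts), beside 139, 184 and 305 CPM in aged elongating spermatid-like cells. A second unnamed group of 120 aged cells, cluster 15, had Scarb1 at 460.3 CPM, Cyp51 at 343 CPM and Srebf2 at 227 CPM (41 counts).

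Cluster 17, with 48 young and 56 aged cells, carried both Leydig and macrophage markers and was left unnamed. Its levels lay between those classes for some genes, with Hmgcs1 at 245 CPM in its young cells and 480.3 CPM in its aged cells and Insig1 at 60.1 and 168 CPM. Abca1 was at 643 and 401 CPM.

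The 33 Sertoli-like cells, all from the aged library, gave 7 counts of Ebp (141 CPM), 16 of Npc2 (322 CPM) and 3 of Scarb1 (60.3 CPM), too few to place these genes.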
